A study of Mus musculus with 2 samples.

Results

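Genomic imprinting leaves 1 parental copy of a gene active and the other silent. The 10 imprinted genes described here are Meg3, Rian, Mirg, H19, Igf2, Peg3, Ndn, Snrpn, Cdkn1c and Dlk1, found by their symbols among the 32285 genes of the count tables. All 10 were found by symbol. Their unique molecular identifiers (UMIs, each standing for 1 captured mRNA molecule) were counted in 8139 and 8209 cells, those with 1500 to 60000 UMIs and under 10% mitochondrial UMIs, with doublets kept in.

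The cells came from the dorsal telencephalon, the region that forms the cerebral cortex, of mouse embryos at embryonic day 16.5, and were profiled with the droplet-based 10x Genomics 3′ chemistry. Both libraries carry the label WT for genotype and form 1 group, WT replicate 1 and WT replicate 6. The series as a whole was set up around a conditional knockout of the histone methyltransferase gene Dot1l with the Emx1-Cre line, which acts in dorsal telencephalic progenitors and their offspring. The knockout was not analysed here, and the genotype label does not say whether the WT embryos carried Emx1-Cre or a floxed Dot1l allele. The comparisons are therefore between cell classes within WT embryos. A UMI carries no record of the parental copy it came from, so levels below are sums over both copies.

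Imprinted genes are grouped in clusters in which a methylated control region sets which parental copy is read. On mouse chromosome 12, the paternal copy gives the protein-coding gene Dlk1, a transmembrane protein of the Notch ligand family, and the maternal copy gives the long noncoding RNAs Meg3, Rian and Mirg, the last of which hosts many microRNAs. At the distal end of chromosome 7, Igf2, a fetal growth factor, is read mainly from the paternal copy. The noncoding RNA H19 and the cell-cycle inhibitor gene Cdkn1c (p57) are read from the maternal copy. Peg3, a zinc-finger protein, Snrpn, a component of the splicing machinery, and Ndn (necdin), a protein of the MAGE family linked to neuronal differentiation, are paternally expressed. Several of these genes are known for roles in the growth of the fetus and placenta and in the developing brain.

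Positions are those of RefSeq on GRCm38.p6, the assembly called mm10 in the submitters' processing notes. Dlk1 lies at chr12:109452485-109463336, Meg3 at chr12:109540996-109571729, Rian at chr12:109603945-109661716 and Mirg at chr12:109734981-109749458, so that the 4 genes span 297.0 kb. On chromosome 7, H19 lies at chr7:142575530-142578146, Igf2 at chr7:142650768-142666816 and Cdkn1c at chr7:143458339-143461059, a stretch of 885.5 kb. Snrpn at chr7:59982495-60450177 and Ndn at chr7:62348277-62349928 span 2367.4 kb, and Peg3 stands apart from them at chr7:6703892-6730462. In this annotation Snrpn overlaps Snurf and Snhg14, Igf2 overlaps Igf2os, Peg3 overlaps Peg3os, and Ndn overlaps Gm32061. Both Meg3 and Rian overlap Rtl1, which lies on the opposite strand in the GRCm39 annotation. Reads of overlapping genes on the same strand may have been shared between them, and the strands of the other pairs were not compared.

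The sequences at annotated starts of the chromosome 12 genes are shown because the levels of Meg3, Rian and Mirg moved together across cell classes, as described below. Dlk1, from the same cluster, is shown with them. Each run holds 300 bases of the plus strand, from 250 bases before an annotated start of the gene to 50 bases after it, from RefSeq on GRCm38.p6. The start used for Dlk1 lies inside the gene span given above, which begins at chr12:109452485. The whole Dlk1 run is therefore inside that span, not upstream of it. Capitals mark CG, the dinucleotide that carries most DNA methylation in mammals, and CG reads the same on both strands. The median of 32851 promoters of the same length held 7 CG. RefSeq windows were matched for 8 of the 10 genes.
Dlk1, chr12:109452573-109452872: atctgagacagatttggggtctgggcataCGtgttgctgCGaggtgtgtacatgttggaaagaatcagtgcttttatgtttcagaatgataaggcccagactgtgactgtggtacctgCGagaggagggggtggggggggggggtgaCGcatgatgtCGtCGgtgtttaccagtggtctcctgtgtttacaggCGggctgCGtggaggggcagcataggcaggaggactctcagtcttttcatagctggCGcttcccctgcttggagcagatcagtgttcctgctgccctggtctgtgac
Meg3, chr12:109540746-109541045: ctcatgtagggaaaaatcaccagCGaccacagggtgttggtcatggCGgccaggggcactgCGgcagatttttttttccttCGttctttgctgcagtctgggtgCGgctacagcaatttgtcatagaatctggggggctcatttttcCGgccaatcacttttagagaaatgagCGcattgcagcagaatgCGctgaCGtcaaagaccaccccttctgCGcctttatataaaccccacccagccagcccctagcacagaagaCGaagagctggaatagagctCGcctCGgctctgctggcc
Rian, chr12:109603695-109603994: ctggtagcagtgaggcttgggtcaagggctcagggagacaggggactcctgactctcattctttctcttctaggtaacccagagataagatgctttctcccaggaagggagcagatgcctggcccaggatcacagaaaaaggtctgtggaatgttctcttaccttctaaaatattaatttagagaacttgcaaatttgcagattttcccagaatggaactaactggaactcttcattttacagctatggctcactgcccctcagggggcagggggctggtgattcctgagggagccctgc
Mirg, chr12:109734731-109735030: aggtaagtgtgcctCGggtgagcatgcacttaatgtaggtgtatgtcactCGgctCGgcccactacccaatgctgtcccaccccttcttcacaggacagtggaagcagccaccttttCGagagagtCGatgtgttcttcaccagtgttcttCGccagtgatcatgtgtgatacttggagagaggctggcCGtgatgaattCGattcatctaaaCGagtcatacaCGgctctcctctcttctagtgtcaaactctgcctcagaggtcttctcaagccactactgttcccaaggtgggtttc

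RefSeq lists 2 starts for Meg3 and 1 for each of the others, and the Meg3 run shown is that of the first. This window held 13 CG, and 37.9% of all promoters held as many or more, while the window of the other start, at chr12:109545148-109545447, held 1 CG, a count reached by 94.6%. The Mirg window held 10 CG, a count reached by 43.5% of promoters, and the Dlk1 window held 9, a count reached by 45.8%. The Rian window held 0 CG.

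RefSeq places 32 mature microRNAs from 17 microRNA genes inside the spans of the 10 genes. Mirg held 19 of them from 10 genes, Rian 6, Meg3 3, and H19 and Igf2 2 each. The microRNAs themselves were not measured by these poly(A) libraries, and the counts below are those of the genes whose spans hold them. A few mature sequences are shown, with the seed (bases 2 to 8) in capitals, because they lie inside genes that were counted here. Whether each is cut from the counted transcript was not tested. Among the 32, a single seed occurred more than once, in the first pair below, both inside Mirg.
miR-453 (Mirg): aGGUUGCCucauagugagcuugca
miR-496a-5p (Mirg): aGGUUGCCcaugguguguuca
miR-410-3p (Mirg): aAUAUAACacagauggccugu
miR-377-3p (Mirg): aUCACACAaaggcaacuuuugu
miR-370-3p (Rian): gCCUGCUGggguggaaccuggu
miR-770-5p (Meg3): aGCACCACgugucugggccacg
miR-675-5p (H19): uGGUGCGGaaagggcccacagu
miR-483-3p (Igf2): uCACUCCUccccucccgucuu

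Cells were assigned to classes by fixed marker genes, none of which is among the 10 imprinted genes. A class needed at least 4 UMIs from at least 2 markers. In WT replicates 1 and 6, neurons numbered 3822 and 4218 cells (excitatory 2263 and 2624, GABAergic 1559 and 1594), and progenitors 675 and 665, made up of radial glial cells (RGCs, 536 and 514) and intermediate progenitor cells (IPCs, 139 and 151). Vascular cells numbered 164 and 155, among them 73 and 63 endothelial cells and 62 and 71 mural cells (the pericytes and smooth muscle cells around vessels), fibroblasts 75 and 82, and microglia 83 and 90. Another 25.6% and 23.8% of the cells passed gates of more than 1 class and were left out as mixed, and 14.4% and 11.6% passed none. Erythroid cells, 64 and 90, served as a class in which RNA from other cells should be the main source of these transcripts.

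The libraries held 74930397 and 68964234 UMIs in 14136 and 13046 barcodes and shared 59 barcodes. The female-specific RNA Xist numbered 76258 UMIs in WT replicate 1 against 10 in the other library, and the Y-linked gene Ddx3y 5 against 2193. The embryos thus differed in sex, and sex and library cannot be told apart. The labels do not say whether the embryos came from separate litters, and the p-values below measure the spread between these 2 libraries. The classes were gated on their markers, so the marker levels describe the classes and do not test their names. In mural cells the summed mural markers were at 8865 CPM. The 7 fibroblast markers summed to 520 CPM there, with 5 of them detected and Lum and Dcn at 0. In fibroblasts the fibroblast markers were at 6365 and the mural markers at 956. Of the mural cells, 17 and 30 also passed the fibroblast gate, and values without cells of both gates, a setting chosen after seeing the data, are given where they moved a result of vascular cells. Cells scored as likely doublets made up 14.6% and 27.1% of vascular cells, among them 17.8% and 42.9% of endothelial cells, and 24.0% and 23.2% of fibroblasts. Without scored doublets, none of the 79 differences of the 10 genes that could be refitted changed its direction or its side of the threshold.

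Levels are given as CPM, the UMIs of a gene among every 1000000 UMIs summed over the cells of a class in 1 library, and as mean ± SD of the 2 libraries (n = 2). Since the chemistry counts 3′ ends, CPM of different genes are not compared with each other. Classes were tested against each other on their 2 sums each with the quasi-likelihood F-test of edgeR. Adjusted p-values follow Benjamini and Hochberg and cover every gene tested, and a difference was called at 0.05. A log2 difference is given with its standard error (SE).

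**Figure D1:**
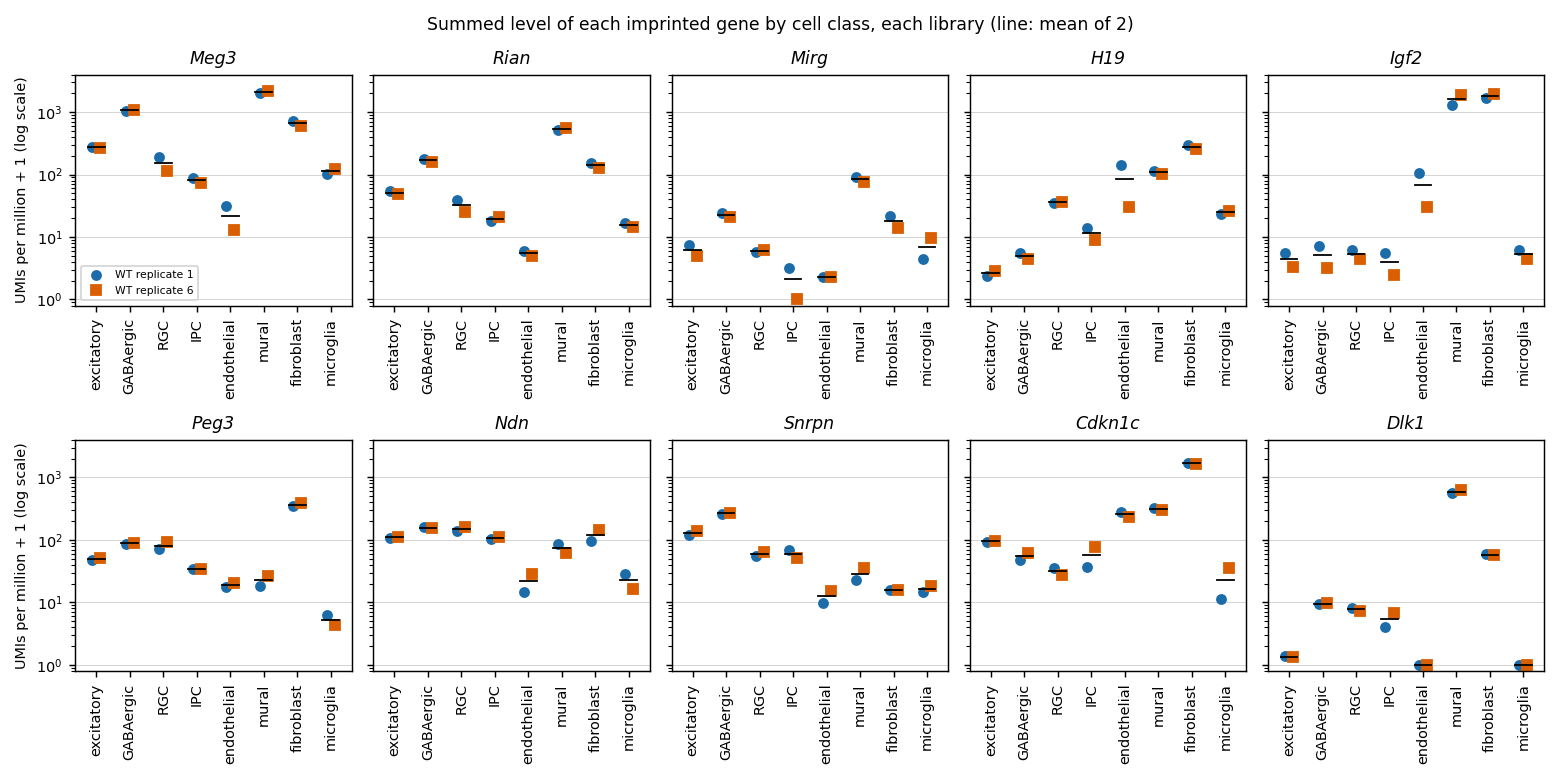
Each panel plots the summed level of 1 imprinted gene, as CPM plus 1 on a log scale, in 8 cell classes, with a point for each WT library and a line at their mean. Meg3, Rian, Mirg and Dlk1 were highest in mural cells, Igf2, H19, Peg3 and Cdkn1c in fibroblasts, and Ndn and Snrpn in GABAergic neurons, by mean CPM.

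Meg3 was highest in mural cells, followed by GABAergic neurons and fibroblasts. Mural cells held 2005 CPM in WT replicate 1 and 2192 CPM in WT replicate 6 (2099 ± 132), GABAergic neurons 1052 and 1074 (1063 ± 15.4), and fibroblasts 726 and 604 (665 ± 86.2). Excitatory neurons held 273 and 269 CPM (271 ± 2.68). Below these classes came RGCs with 188 and 115 CPM, microglia with 102 and 124, IPCs with 87.6 and 72.7, and endothelial cells with 30.4 and 11.8. The libraries kept this order without overlap except that RGCs and microglia overlapped. In erythroid cells Meg3 was at 39.0 and 8.15 CPM, a range that holds the endothelial values.

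Some of the low Meg3 levels rested on single cells. In WT replicate 1, 1 RGC held 114 of 802 Meg3 UMIs, 1 IPC held 53 of 117, and 1 microglial cell held 33 of 59. In WT replicate 6 the highest cell of these classes held 13 of 471, 14 of 100 and 20 of 73. The difference between the libraries in RGCs therefore includes the counts of a single cell.

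Rian and Mirg, the noncoding RNAs downstream of Meg3, had their highest levels in the same class as Meg3. Rian stood at 517 and 559 CPM in mural cells, at 176 and 160 in GABAergic neurons, at 154 and 125 in fibroblasts and at 53.3 and 47.4 in excitatory neurons. Mirg stood at 91.8 and 73.7 CPM in mural cells, 23.3 and 19.9 in GABAergic neurons and 20.9 and 13 in fibroblasts, and the libraries of the last 2 classes overlapped. Endothelial cells held 7 Rian UMIs and 2 Mirg UMIs in both libraries together, against 576 and 88 in mural cells.

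Rian UMIs per 100 Meg3 UMIs, a ratio used here only to compare classes, were 15.8 ± 1.30 in GABAergic neurons, 18.6 ± 1.36 in excitatory neurons, 20.9 ± 0.227 in RGCs, 20.9 ± 0.449 in fibroblasts and 25.6 ± 0.22 in mural cells. Over these 5 classes the ratio stayed within a narrower range than the Meg3 level itself. The ratio was lower in GABAergic neurons than in mural cells in both libraries, by values of 16.7 and 14.9 against 25.8 and 25.5.

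Dlk1, the protein-coding gene of the same cluster, was found in fewer classes. Mural cells held 558 and 623 CPM (591 ± 45.9) and fibroblasts 57.8 and 55.8 (56.8 ± 1.37). The summed mural markers were at 956 CPM in fibroblasts and 8865 in mural cells, and their part in the fibroblast Dlk1 level, 54.2 ± 1.53 without cells of both gates, was not tested. In GABAergic neurons Dlk1 was at 8.43 and 8.64 CPM, in RGCs at 7.26 and 6.35, and in excitatory neurons at 0.366 and 0.34, which were 7 UMIs in each library. No Dlk1 UMI was found in endothelial cells or microglia, where 3 counts over both libraries would be 1.93 and 2.58 CPM, or in erythroid cells. Per 100 Meg3 UMIs, Dlk1 had 0.13 UMIs in excitatory neurons, 0.803 in GABAergic neurons, 4.69 in RGCs, 8.60 in fibroblasts and 28.1 in mural cells, so this ratio covered a wider range over the classes than that of Rian.

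Igf2 and H19, neighbours on chromosome 7, were high in fibroblasts and mural cells, and H19 was also present in RGCs, where Igf2 was near its lowest. Igf2 stood at 1682 and 1926 CPM in fibroblasts (1804 ± 172) and at 1322 and 1876 in mural cells (1599 ± 392), and these classes overlapped. In neural classes and microglia its mean was between 2.97 and 4.30 CPM. H19 stood at 302 and 253 CPM in fibroblasts (278 ± 34.3), at 113 and 101 in mural cells and at 34.4 and 35.4 in RGCs. The RGC level rested on few cells. The 10% of RGCs with the most H19 UMIs held 82.3% and 84.1% of them in WT replicates 1 and 6. The highest RGC held 14 of 147 and 28 of 145. In GABAergic and excitatory neurons H19 had means of 3.96 and 1.63 CPM, while erythroid cells held 1.96 CPM.

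Endothelial cells gave uneven values for both of these genes. H19 was at 141 CPM in WT replicate 1 and 28.8 in WT replicate 6, and Igf2 at 105 and 28.8. In WT replicate 1, 6 of 73 endothelial cells held all 111 H19 UMIs and 1 of them held 55, and in WT replicate 6, 5 of 63 cells held all 22 and 1 of them held 16. Without scored doublets the mean endothelial level was 51.2 CPM for H19 and 26.9 CPM for Igf2, from 84.7 and 67.0 with them. These few cells set the endothelial levels of both genes.

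Cdkn1c, an inhibitor of cyclin-dependent kinases, was highest in fibroblasts at 1726 and 1651 CPM (1689 ± 53.1). Mural cells held 326 and 302 CPM and endothelial cells 281 and 234. Without the cells that passed both the fibroblast and a vascular gate, a setting chosen after seeing the data, Cdkn1c was at 155 ± 27.3 CPM in mural cells and 261 ± 38.1 in endothelial cells, which turned their order. Among neural cells, excitatory neurons had 90.9 and 96.4 CPM, GABAergic neurons 47.1 and 60.2, and RGCs 34.4 and 26.6. IPCs differed between the libraries, with 36.0 and 77.1 CPM.

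Peg3 stood at 346 and 386 CPM in fibroblasts, above every other class. GABAergic neurons (86.0 and 89.0) and RGCs (69.8 and 90.6) overlapped, and excitatory neurons held 46.0 and 50.1 CPM. Mural and endothelial cells were close to each other, with means of 21.4 and 18.0 CPM, and the mural mean was 10.5 CPM without cells of both gates. Microglia held 5 Peg3 UMIs in all.

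Ndn had similar levels in the 4 neural classes. GABAergic neurons held 157 and 155 CPM, RGCs 138 and 157, excitatory neurons 107 and 112, and IPCs 104 and 110, and fibroblasts 95.6 and 143. Each of these 5 classes overlapped the next in the order of means. Mural cells held 84.0 and 61.1 CPM. Microglia, at 27.7 and 15.3 CPM, and endothelial cells, at 13.9 and 27.5, were near the erythroid level of 16.4 ± 9.31.

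Snrpn was highest in the neurons. GABAergic neurons held 259 and 269 CPM (264 ± 7.21), excitatory neurons 117 and 137 (127 ± 14.3), and RGCs and IPCs means of 59.3 and 59.2. Fibroblasts, microglia and endothelial cells had means of 14.9, 15.4 and 11.6 CPM, against 12.1 ± 10.6 in erythroid cells, so that no level above that of erythroid cells could be read there.

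**Figure D2:**
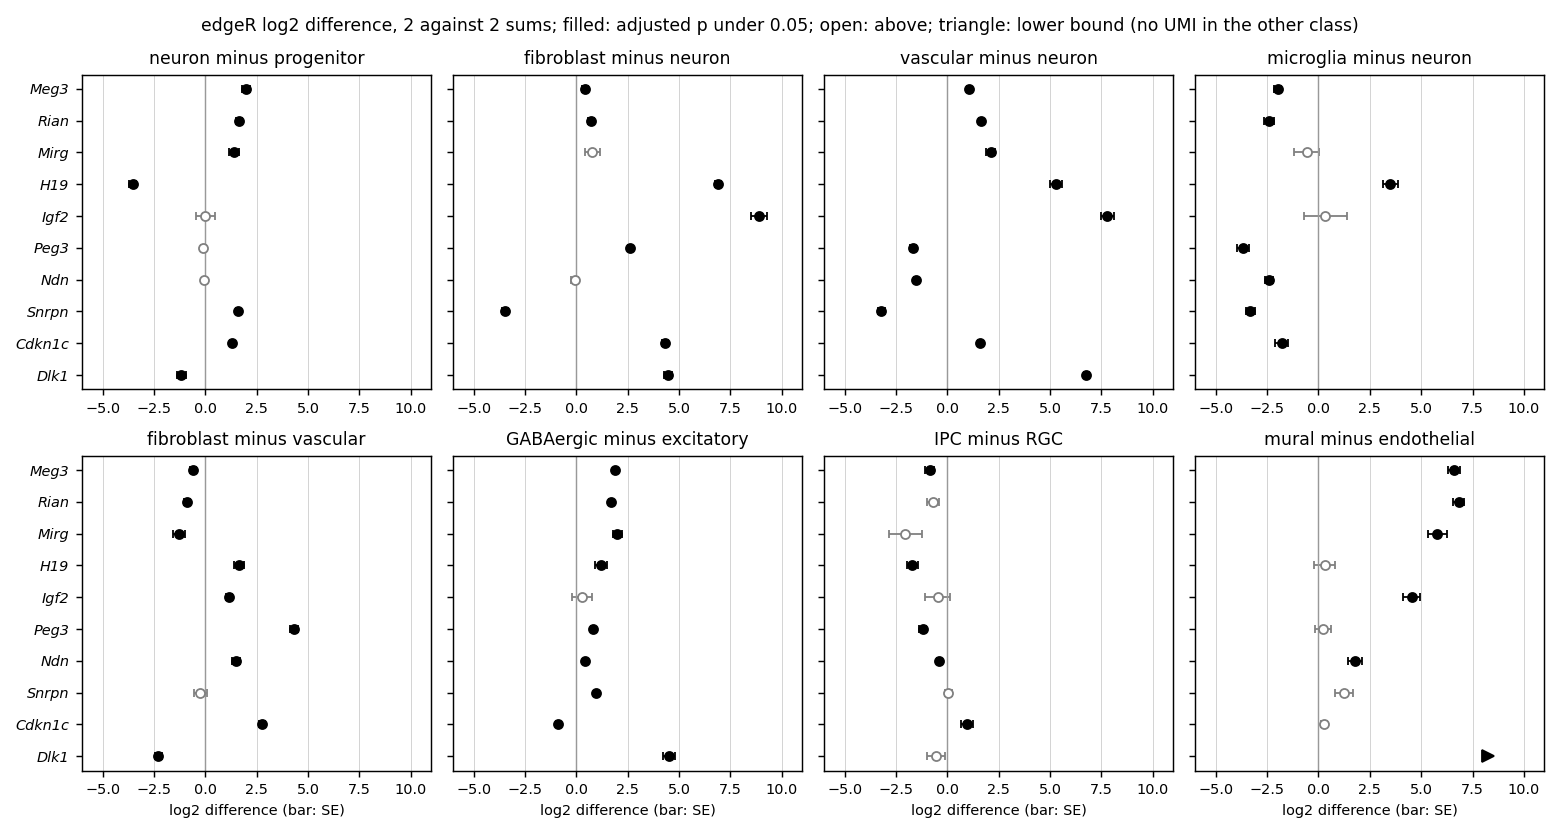
Each panel plots the edgeR log2 difference of the 10 imprinted genes in 1 comparison of cell classes, with SE as bars, filled points for an adjusted p under 0.05 and open points above it. The triangle is the lower bound for Dlk1 where endothelial cells held no UMI, Dlk1 has no point for microglia, and the vascular against neuron panel has 10 filled points, 7 of them above 0.

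Between neurons and progenitors, 5 of the 10 genes were higher in neurons and 2 in progenitors. Of all 16398 genes tested, 63.5% passed, 31.3% higher in neurons and 32.2% higher in progenitors, so 7 of 10 is near the background. Meg3 was higher in neurons by 1.98 ± 0.18 on the log2 scale (adjusted p = 1.3e-05), Rian by 1.66 ± 0.15 (adjusted p = 1.5e-05), Snrpn by 1.60 ± 0.08 (adjusted p = 3e-07), Mirg by 1.40 ± 0.26 (adjusted p = 0.0013) and Cdkn1c by 1.30 ± 0.10 (adjusted p = 4e-06). H19 and Dlk1 went the other way, with differences of -3.54 ± 0.15 (adjusted p = 8.1e-08) and -1.17 ± 0.23 (adjusted p = 0.0019). Ndn differed by -0.04 and Peg3 by -0.09, with adjusted p of 0.69 and 0.46, and Peg3 by -0.24 (adjusted p = 0.046) without progenitor replicate 1. Cycling progenitors entered these sums: with non-cycling progenitors alone, Cdkn1c was higher in neurons by 0.67 ± 0.11 (adjusted p = 0.00048), Mirg by 0.83 ± 0.29 (adjusted p = 0.030), Rian by 1.13 ± 0.14 and Meg3 by 1.42 ± 0.15. The median log2 difference was 0.66 for the 10 genes and 0.02 for all genes, and the TMM scaling moved the median of all genes by 0.14 against scaling to total counts.

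Within the neurons, 8 of the 10 genes were higher in GABAergic than in excitatory neurons and 1 was lower. Among 15527 genes tested, 22.5% were higher in GABAergic and 22.4% in excitatory neurons, 44.8% in all. The 4 chromosome 12 genes differed most: Dlk1 by 4.49 ± 0.29 (122 against 14 UMIs, adjusted p = 6.1e-06, and 5.57 ± 0.37 with the stricter cell filter), Mirg by 1.99 ± 0.22, Meg3 by 1.90 ± 0.07 (adjusted p = 1.8e-07) and Rian by 1.67 ± 0.09. The Dlk1 difference rested on few cells. Only 38 of 1559 and 35 of 1594 GABAergic neurons held a Dlk1 UMI, and the top 1% of cells held 65.1% and 67.8% of them. Snrpn was higher by 0.98 ± 0.08, Peg3 by 0.79 ± 0.07 and Ndn by 0.44 ± 0.06. Cdkn1c was the gene that was lower in GABAergic neurons, by -0.88 ± 0.10 (adjusted p = 0.00021), in both libraries. H19 differed by 1.21 ± 0.30 (adjusted p = 0.011) on 57 and 65 UMIs, a call that was lost without GABAergic replicate 1 (adjusted p = 0.11) or excitatory replicate 1 (adjusted p = 0.057), and with DESeq2 (adjusted p = 0.080). Igf2 differed by 0.27 (adjusted p = 0.67). The median difference of the 10 genes was 1.09, against -0.02 over all genes.

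Within the progenitors, 4 of the 10 genes were lower in IPCs than in RGCs and 1 was higher. Over 12370 genes, 23.6% passed, 9.49% higher in IPCs and 14.1% higher in RGCs. H19 was lower in IPCs by -1.70 ± 0.25 (adjusted p = 0.00096, and -2.32 ± 0.28 with the stricter gate) and Peg3 by -1.21 ± 0.18 (adjusted p = 0.0012), and these calls held under each alternative tried. Meg3 differed by -0.86 ± 0.23 (adjusted p = 0.022), by -0.48 without RGC replicate 1 (adjusted p = 0.051), the library with the RGC of 114 Meg3 UMIs, and by -0.89 without the count filter (adjusted p = 0.084). The Meg3 call was also lost with the stricter cell filter (-0.74, adjusted p = 0.089) and with mixed cells kept (-0.68, adjusted p = 0.056). Ndn differed by -0.41 ± 0.12 (adjusted p = 0.040) and lost the call without either IPC replicate or without RGC replicate 6, with adjusted p between 0.056 and 0.19. The Ndn call was also lost with DESeq2 (adjusted p = 0.26), without the count filter (0.076), with the stricter gate (0.080) and with mixed cells kept (0.053), at log2 differences of -0.34 to -0.43. Cdkn1c was higher in IPCs by 0.95 ± 0.29 (adjusted p = 0.041), which came from WT replicate 6 with a difference of 1.53 against 0.07 in WT replicate 1, and was 0.30 without IPC replicate 6 (adjusted p = 0.44). In that library 1 IPC held 38 of the 106 Cdkn1c UMIs. The Cdkn1c call was also lost with total counts (adjusted p = 0.053), DESeq2 (0.11), no count filter (0.15), the stricter cell filter (0.13) and non-cycling progenitors alone (0.060), at log2 differences of 0.87 to 0.95. With non-cycling progenitors alone, Meg3 differed by -1.67 ± 0.34 (adjusted p = 0.0047) and Rian by -1.20 ± 0.34 (adjusted p = 0.028). Rian differed by -0.72 (adjusted p = 0.11) and by -0.70 with the library as a block (adjusted p = 0.033). Dlk1 passed with the stricter gate alone (-1.90 ± 0.49, adjusted p = 0.016), from -0.56 in the fit as planned. Mirg had 3 UMIs in IPCs and 41 in RGCs, a ratio of 4.43 with a counting interval of 1.41 to 22.4. The median of the 10 genes was -0.64, against 0.00 over all genes.

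Against neurons, fibroblasts had 7 of the 10 genes higher and 1 lower. Of 16167 genes, 56.1% passed, 26.0% higher in fibroblasts and 30.1% higher in neurons. Igf2 was higher in fibroblasts by 8.90 ± 0.38 (adjusted p = 1.9e-06), H19 by 6.89 ± 0.14 (adjusted p = 1.7e-07), Dlk1 by 4.45 ± 0.19, Cdkn1c by 4.31 ± 0.13 and Peg3 by 2.60 ± 0.10. The Igf2 difference was 9.61 without neuron replicate 1, where neuronal Igf2 was at 5.0 CPM, against 2.30 in WT replicate 6. Rian was higher by 0.73 ± 0.14 (adjusted p = 0.0039) and Meg3 by 0.43 ± 0.13 (adjusted p = 0.027). The Rian call was lost without neuron replicate 1 (0.88, adjusted p = 0.081) or neuron replicate 6 (0.65, adjusted p = 0.12). The Meg3 call was lost without neuron replicate 1 (0.50, adjusted p = 0.16), neuron replicate 6 (0.42, adjusted p = 0.20) or fibroblast replicate 1 (0.25, adjusted p = 0.055), without the count filter (0.32, adjusted p = 0.11) and with all classes in a single fit (0.42, adjusted p = 0.059). Snrpn was lower by -3.49 ± 0.14 (adjusted p = 1.7e-06), on 30 fibroblast UMIs. The fibroblast level was inside the erythroid range, so the value measures the distance from neurons to that background. Ndn differed by -0.08 (adjusted p = 0.71), and by -0.40 without fibroblast replicate 6 (adjusted p = 0.012). Mirg differed by 0.78 (adjusted p = 0.11), with an adjusted p of 0.041 when the library was a block. The median of the 10 genes was 1.69, against -0.20 over all genes.

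All 10 genes differed between vascular cells and neurons, 7 higher and 3 lower in vascular cells. Among 16135 genes, 63.8% passed, 29.9% higher in vascular cells and 34.0% higher in neurons. Igf2 was higher by 7.79 ± 0.30, Dlk1 by 6.77 ± 0.12 (adjusted p = 2.7e-10), H19 by 5.27 ± 0.29, Mirg by 2.10 ± 0.22, Rian by 1.64 ± 0.10, Cdkn1c by 1.58 ± 0.10 and Meg3 by 1.06 ± 0.10. H19 was higher by 4.66 without vascular replicate 1 and Igf2 by 8.44 without neuron replicate 1. Snrpn, Peg3 and Ndn were lower, by -3.21 ± 0.15, -1.68 ± 0.15 and -1.52 ± 0.10. These calls held in each refit that left out 1 sum. Without cells of both gates the calls held as well, with smaller differences for Meg3 (0.59 ± 0.11, adjusted p = 0.0013), Rian (1.21 ± 0.11) and Dlk1 (6.35 ± 0.12). With mixed cells given to their leading class, Snrpn was lower by -2.16 ± 0.11. The median of the 10 genes was 1.61, against -0.15 over all genes. Snrpn was thus lower in both vascular cells and fibroblasts than in neurons, and Peg3 was lower in vascular cells and higher in fibroblasts.

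Within the vascular class, the levels were those of mural cells rather than of endothelial cells for 6 of the 10 genes. The test called 31.1% of 8736 genes, 15.2% higher in mural cells and 15.9% higher in endothelial cells, and none of the 10 genes was called higher in endothelial cells. Meg3 was higher in mural cells by 6.59 ± 0.29 (adjusted p = 1.5e-07), Rian by 6.82 ± 0.26 (adjusted p = 7.5e-08), Igf2 by 4.54 ± 0.42 (adjusted p = 1.6e-05) and Ndn by 1.78 ± 0.35 (adjusted p = 0.0027, and 0.067 without the count filter). Endothelial Meg3 lay within the erythroid range, and the Meg3 difference was 5.35 ± 0.27 with the stricter gate, 4.89 ± 0.33 with mixed cells kept and 7.22 ± 0.44 without scored doublets. With mixed cells kept the Rian difference was 5.84 ± 0.21, and without scored doublets it was 7.69 ± 0.39 and that of Igf2 5.95 ± 0.40. Mirg had 88 UMIs against 2, a ratio of 64.0 with a counting interval of 17.2 to 536. Dlk1 had 633 UMIs in mural cells and 0 in endothelial cells and was at least 307-fold higher, taking 3 counts over the group as the floor. H19 differed by 0.30 (adjusted p = 0.72) and by 1.88 without endothelial replicate 1 (adjusted p = 5.6e-07). Cdkn1c differed by 0.26 (adjusted p = 0.28), and by -0.75 ± 0.21 (adjusted p = 0.021) without cells of both gates. Snrpn differed by 1.24 (adjusted p = 0.052), by 2.18 ± 0.55 with the stricter cell filter (adjusted p = 0.0054), and with an adjusted p of 0.028 when the library was a block. The median of the 10 genes was 3.16, also with Dlk1 at its bound, against 0.00 over all genes.

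The calls between mural and endothelial cells depended on both mural sums. Without mural replicate 1 or mural replicate 6, edgeR called 0 genes (2623 and 2562 at an unadjusted p under 0.05), and the 6 calls above were lost with adjusted p between 0.070 and 0.22, while their log2 differences kept their direction. Without endothelial replicate 1, Meg3 was higher by 7.45 and Igf2 by 5.78, and without endothelial replicate 6 Igf2 was higher by 3.86, all of them called.

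Fibroblasts and vascular cells, the classes with the highest levels of most of these genes, differed from each other in 9 of the 10 genes. Of 10824 genes tested, 32.1% passed, 15.6% higher in fibroblasts and 16.5% higher in vascular cells. Peg3 was higher in fibroblasts by 4.32 ± 0.18 (adjusted p = 1.3e-07), Cdkn1c by 2.77 ± 0.15, H19 by 1.66 ± 0.25 (0.98 ± 0.26 with the stricter cell filter), Ndn by 1.49 ± 0.21 and Igf2 by 1.16 ± 0.15. The 4 chromosome 12 genes were lower in fibroblasts, Dlk1 by -2.28 ± 0.16 (adjusted p = 2.4e-06), Mirg by -1.27 ± 0.29, Rian by -0.87 ± 0.15 and Meg3 by -0.59 ± 0.15 (adjusted p = 0.011). Without cells of both gates, Meg3 differed by -0.14 (adjusted p = 0.57). Without vascular replicate 1 or vascular replicate 6, edgeR called 0 genes (2950 and 2963 at an unadjusted p under 0.05), and the 9 calls were lost with adjusted p between 0.093 and 0.23 and with the same directions. With DESeq2 the Mirg difference had an adjusted p of 0.086. The median of the 10 genes was 0.46, against 0.01 over all genes.

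Against neurons, microglia had 6 of the 10 genes lower and 1 higher. Of 15763 genes, 50.7% passed, 23.3% higher in microglia and 27.5% higher in neurons. Peg3 was lower in microglia by -3.68 ± 0.31, Snrpn by -3.31 ± 0.20, Ndn by -2.41 ± 0.21, Rian by -2.39 ± 0.24, Meg3 by -1.99 ± 0.16 and Cdkn1c by -1.80 ± 0.32 (adjusted p = 0.0012). In this order they rested on 5, 18, 25, 17, 132 and 26 microglial UMIs. At such counts the SE may be smaller than the counting error alone. The Cdkn1c call was lost without neuron replicate 1 (adjusted p = 0.14) or neuron replicate 6 (adjusted p = 0.16), and its difference was -2.94 without microglia replicate 6 and -1.20 without microglia replicate 1. For Ndn the adjusted p was 0.050 without neuron replicate 1. The microglial Snrpn level was also inside the erythroid range. With mixed cells given to their leading class, Peg3 was lower by -2.51 ± 0.23, Snrpn by -2.66 ± 0.25 and Rian by -1.79 ± 0.21. H19 was higher by 3.50 ± 0.36 (adjusted p = 4e-05), on 28 UMIs in microglia and with 22.5 and 25.5 CPM against 2.29 and 2.23 in neurons. Dlk1 had 0 UMIs in microglia, where 3 counts would have been 2.58 CPM, and was at 2.52 CPM in neurons, so no difference was detectable at this depth. The median of the 10 genes was -2.19, or -1.90 with Dlk1 taken as no difference, against -0.30 over all genes.

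The same comparisons were read for 40 other imprinted genes listed with the 10, all of which were present in the files, and each count is given with the share of all genes that passed. Between neurons and progenitors 28 of 35 tested differed, 15 of them higher in neurons (63.5% of all genes passed), and between fibroblasts and neurons 26 of 36, 16 of them higher in fibroblasts (56.1%). In vascular cells against neurons 26 of 34 differed, 13 in each direction (63.8%), and in microglia against neurons 20 of 33, with 18 lower in microglia (50.7%). GABAergic against excitatory neurons gave 22 of 35, with 17 higher in GABAergic neurons (44.8%), and IPCs against RGCs 11 of 30, with 9 lower in IPCs (23.6%). Fibroblasts against vascular cells gave 19 of 27 (32.1%) and mural against endothelial cells 9 of 22 (31.1%). Of the 40, 12 had their highest mean in GABAergic neurons, 8 in fibroblasts, 7 in mural cells, 4 in IPCs, 3 each in excitatory neurons and endothelial cells, 2 in RGCs and 1 in microglia. This ranking had no floor and no check for overlap of the libraries. H13, counted as excitatory, had a mean of 83.4 CPM in GABAergic neurons as well. The microglial gene, Ascl2, had 9 and 3 UMIs there.

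Usp29, a neighbour of Peg3, was higher in neurons than in progenitors by 2.57 ± 0.13, at 164 and 167 against 35.7 and 25.4 CPM. Slc38a4, an amino acid transporter, was higher in fibroblasts than in neurons by 7.70 ± 0.28, and Grb10, an adaptor protein of growth factor receptors, by 4.49 ± 0.20. Airn, the noncoding RNA antisense to Igf2r, was higher in vascular cells than in neurons by 4.81 ± 0.12 and in mural than in endothelial cells by 1.98 ± 0.14. Cd81, a tetraspanin, was higher in microglia than in neurons by 2.58 ± 0.13. Plagl1, a zinc-finger protein, was lower in GABAergic than in excitatory neurons by -1.44 ± 0.21 and lower in mural than in endothelial cells by -2.23 ± 0.29. Kcnq1ot1, the noncoding RNA of the Cdkn1c region, was higher in IPCs than in RGCs by 0.72 ± 0.11.

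**Figure D3:**
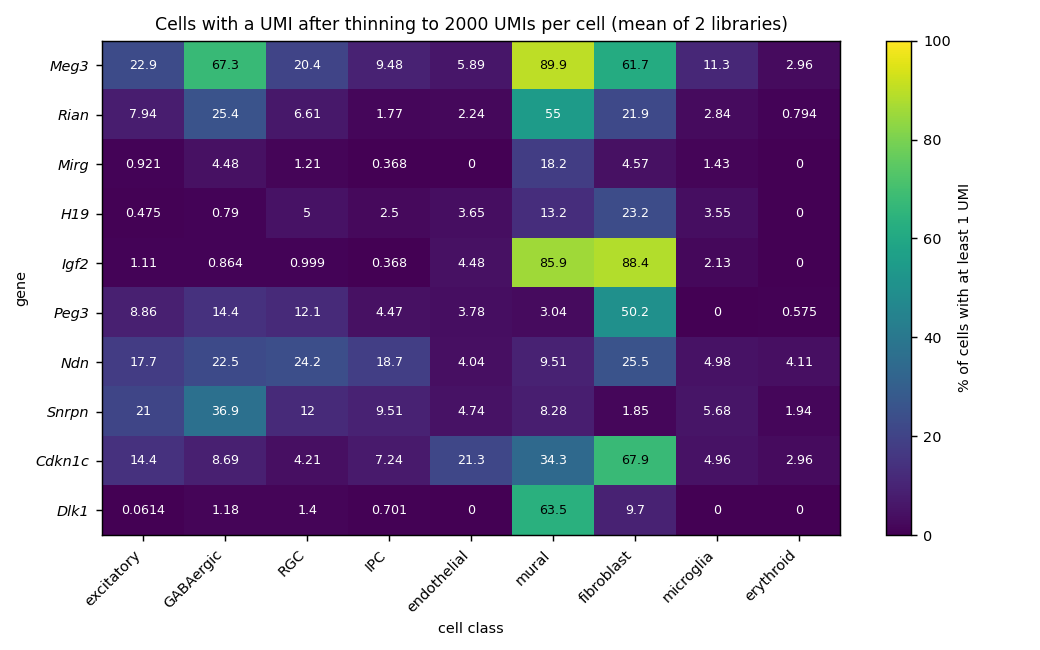
The grid gives, for each of the 10 imprinted genes (rows) and 9 cell classes (columns, erythroid cells last), the percentage of cells with at least 1 UMI after each cell was thinned to 2000 UMIs, as the mean of 2 libraries. Meg3 was found in 89.9% of mural cells and 67.3% of GABAergic neurons, against 2.96% of erythroid cells.

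Shares of cells with a UMI were compared after thinning each cell to 2000 UMIs, since the classes differ in depth. Meg3 was found in 54 of 60 and 61 of 68 mural cells (Wilson 95% intervals 79.9 to 95.3% and 80.2 to 94.9%), and in 65.8% and 68.7% of GABAergic neurons. Excitatory neurons, at 22.9%, and RGCs, at 20.4%, were close in this share although the excitatory CPM was higher. Microglia had 11.3% against 2.96% in erythroid cells, whose median depths were 6470 and 6378 UMIs and 5794.5 and 5496.5 UMIs before thinning, and endothelial cells 5.89%. The intervals of endothelial and erythroid cells overlapped in both libraries, and those of microglia and erythroid cells in WT replicate 1. Without thinning, the shares of cells with Meg3 were 97.0% in mural cells, 77.6% in GABAergic neurons and 37.5% in excitatory neurons. Intervals cover counting error only.

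Igf2 was found in most cells of its high classes, 88.4% of fibroblasts and 85.9% of mural cells after thinning (98.7% and 99.2% without thinning). Dlk1 was found in 63.5% of mural cells (86.4% without thinning), 9.70% of fibroblasts and 1.18% of GABAergic neurons. Cdkn1c was found in 67.9% of fibroblasts, 34.3% of mural cells, 21.3% of endothelial cells and 14.4% of excitatory neurons. H19 was found in 23.2% of fibroblasts, 13.2% of mural cells and 5.0% of RGCs, and in 0 of the thinned erythroid cells, which allows a share of cells with an H19 UMI at that depth of up to 5.75% and 4.23% by the Wilson interval. Ndn was found in 17.7% of excitatory neurons, 18.7% of IPCs, 22.5% of GABAergic neurons, 24.2% of RGCs and 25.5% of fibroblasts. It was found in 9.51% of mural cells, 4.98% of microglia and 4.04% of endothelial cells, against 4.11% of erythroid cells. Snrpn reached 36.9% of GABAergic and 21.0% of excitatory neurons.

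The counts were also spread unequally over the cells of a class. In excitatory neurons, the 10% of cells with the most Meg3 UMIs held 70.8% and 70.9% of them, and the highest cells held 102 and 162. In mural cells the same share of cells held 26.0% and 24.1%, and in GABAergic neurons 42.4% and 43.2%. Meg3 was thus carried by a minority of excitatory neurons and by nearly all mural cells. For Ndn, the top 10% of excitatory neurons held 43.8% and 43.0% of the UMIs. For Cdkn1c, the top 10% of RGCs held 95.2% and 89.9%, with 52 of 147 UMIs in 1 cell of WT replicate 1.

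**Figure D4:**
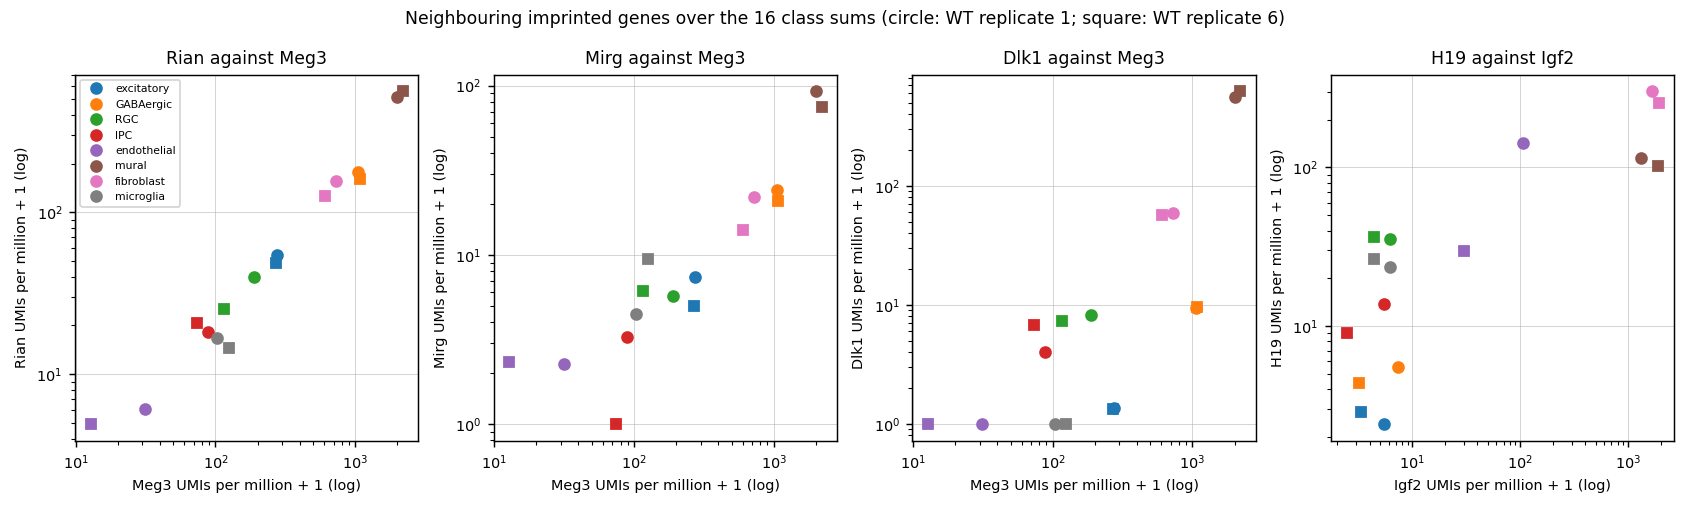
Each point is 1 of 16 class sums (8 cell classes in each of 2 WT libraries, circle for WT replicate 1 and square for WT replicate 6), with the CPM plus 1 of a pair of neighbouring imprinted genes on log axes. Rian and Meg3 lie along a line (r = 0.98), whereas H19 and Igf2 part in RGCs, IPCs and microglia, where H19 stood above its own level in neurons and Igf2 was near its lowest.

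Over the 16 sums, Meg3 and Rian were correlated with a Pearson r of 0.98 (Spearman rho 0.96) on the log2 scale, Rian and Mirg with 0.93 (0.86), and Meg3 and Dlk1 with 0.75 (0.82). H19 and Igf2 had 0.87 (0.75), Igf2 and Cdkn1c 0.87 (0.64), and Ndn and Snrpn 0.68 (0.74). These values describe 8 classes of 2 libraries each, whose sums share library and depth, and they carry no test. Within excitatory neurons, cells with a Meg3 UMI held Rian more often than cells without. In WT replicate 1 it was 24.8% of 508 cells with Meg3 against 3.11% of the rest, and in WT replicate 6, 24.4% of 591 against 2.86%. GABAergic neurons, RGCs, fibroblasts and microglia had the same order in both libraries, with fibroblasts of WT replicate 6 close at 19.6% against 17.1%. Mural cells of WT replicate 6 had the reverse order, 62.3% of the 61 cells with Meg3 against 71.4% of the rest among 68 cells. So did IPCs of WT replicate 1 and endothelial cells of both libraries, where few cells held either RNA. The rank correlation over the 2210 and 2581 thinned excitatory neurons was 0.36 in both libraries. For Ndn and Snrpn, which share a region of chromosome 7, it was 0.0047 and 0.014 in the same cells, so a joint occurrence in the same cells was not detectable at this depth.

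The genes with the pattern most like each member were those of highest Pearson r of log2(CPM + 10) over the same 16 sums, among 7921 genes with a mean of at least 20 CPM. For Meg3 they were Rian (0.976), Angpt1 (0.939) and B830012L14Rik (0.938). For Mirg they were B830012L14Rik (0.977), Rian (0.931) and Tiparp (0.930). B830012L14Rik lies between Rian and Mirg on the same strand in the GRCm39 annotation, so genes of the same cluster were among the nearest in pattern. Dlk1 was nearest to Heyl, Ednra and Ndufa4l2 (0.985 each), Igf2 to Ift20 (0.985), Cdc42ep5 (0.983) and Pdlim2 (0.981), and H19 to Pcca (0.955), Oaf (0.954) and Kdelr2 (0.944). Cdkn1c was nearest to Fkbp7 (0.944), Peg3 to Pgrmc1 (0.924), Ndn to Dzip1 (0.951) and Snrpn to Otud7a (0.976).

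Splits within a class, chosen after values of these data had been seen, are given as a description without a test. Excitatory neurons with a UMI of Fezf2, a marker of subcortical projection neurons, held 491 and 513 CPM of Meg3 in WT replicates 1 and 6, and those without it 213 and 207. Rian was at 88.8 and 87.0 against 43.5 and 37.3 CPM, and Ndn at 143 and 146 against 97.4 and 103 CPM. Peg3 overlapped between these groups of neurons, with 44.0 and 46.7 against 46.5 and 51.0 CPM. The share of all genes without overlap in this split was not counted. Snrpn stood at 138 and 162 against 111 and 131 CPM, and Cdkn1c at 109 and 102 against 85.9 and 94.9 CPM. Since a deeper cell more often shows a UMI of a marker, depth may differ between such groups, and its part was not tested.

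RGCs with at least 2 markers of the cell cycle held less Meg3 than the others, 78.3 and 42.5 against 305 and 179 CPM. Rian (19.5 and 9.33 against 59.7 and 37.4 CPM) and Cdkn1c (18.6 and 8.30 against 51.5 and 42.9) were lower in the cycling RGCs as well. So were Snrpn (39.4 and 51.9 against 71.4 and 74.2), Ndn (116 and 140 against 161 and 173) and Peg3 (56.6 and 83.0 against 84.0 and 97.3). Mirg and Dlk1 were also lower there without overlap of the libraries. The share of all genes without overlap was not counted for this split either. H19 overlapped, with 28.1 and 42.0 CPM in cycling and 41.3 and 29.5 in other RGCs, and so did Igf2. GABAergic neurons with a UMI of Lhx6, a factor of interneurons from the medial ganglionic eminence, held 1.65 and 1.16 CPM of Dlk1, against 10.6 and 11.2 in the rest, while Ndn was at 204 and 189 against 142 and 144 CPM. Dlk1 and Ndn thus differed in opposite directions between these groups of GABAergic neurons.

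**Figure D5:**
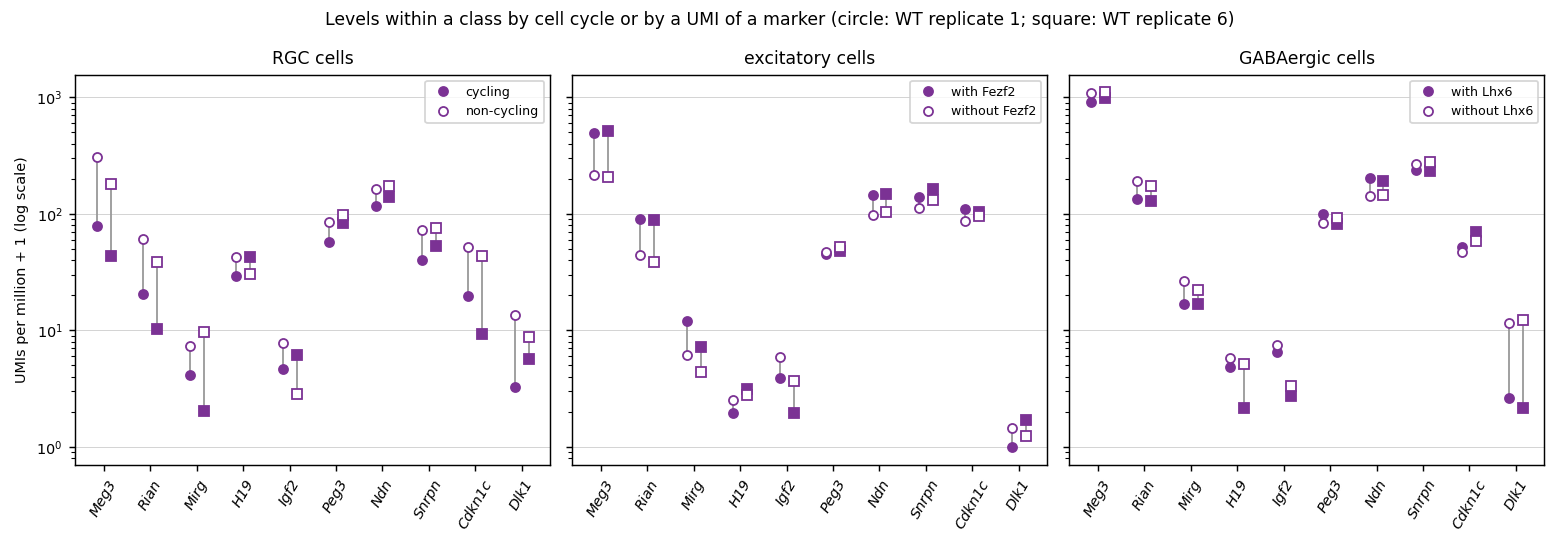
Levels of the 10 imprinted genes, as CPM plus 1 on a log scale, are plotted within a class for cells with (filled) and without (open) the property named in each legend, with a circle for WT replicate 1 and a square for WT replicate 6. Meg3 was at 60.4 CPM on average in cycling and at 242 CPM in other RGCs, and at 502 CPM on average in excitatory neurons with Fezf2, with 213 and 207 CPM in those without.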

How the data were processed

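Single-cell libraries of 2 WT embryos were analysed. The authors deposited raw UMI counts per gene and cell, and the submitters' processing notes name Cell Ranger 7.0.0 and mm10. Whether intronic reads were counted is not given in the sources used here. The cell filter kept barcodes of 1500 to 60000 UMIs with a mitochondrial share under 10%, and doublets were not removed. A class needed at least 2 markers and 4 UMIs of its list. Cells that passed gates of more than 1 class were left out as mixed, except that IPC markers took precedence over RGC markers and that a cell of both the fibroblast and a vascular gate went to the list with more UMIs.

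Counts were added up over the cells of each class in each library. Comparisons used edgeR 4.0.16 (TMM, filterByExpr, glmQLFit and glmQLFTest, two-sided) with the sums of both classes, 2 against 2. P-values were adjusted by Benjamini and Hochberg's method across the genes tested, and SE is the log2 difference divided by the square root of F. Where a class held few UMIs, this SE may be smaller than the counting error alone. Lower bounds used a floor of 3 counts over the group.

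Classes of the same library come from the same embryo, so libraries pair the sums. Deviations from class means correlated across genes within a library with r of 0.30 (neuron, progenitor), 0.11 (fibroblast, neuron), 0.15 (vascular, neuron), 0.10 (microglia, neuron), 0.17 (fibroblast, vascular), 0.36 (GABAergic, excitatory), 0.24 (IPC, RGC) and 0.093 (mural, endothelial).

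All 10 genes were named; of 40 other imprinted genes, those with the 2 largest changes each way per comparison could be named, and for likeness the 3 genes of highest r. The members and lists were chosen with earlier results of these data known. Alternatives were DESeq2 1.42.0, total counts in place of TMM, no count filter, the library as a block, all classes in a single fit, stricter cell filters (3000 to 30000 UMIs, under 5% mitochondrial) and gates, mixed cells kept (given to the class of their leading list), scored doublets removed, non-cycling progenitors alone, cells of both a fibroblast and a vascular gate removed, and each sum or library left out. Sequences came from RefSeq on GRCm38.p6.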

Additional observations from a re-analysis of the deposited data

Results flagged for a closer look

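Barcodes left out of every comparison also held UMIs of the 10 imprinted genes, above the limit that a count of 0 allows. In the 4018 and 3802 barcodes under 1500 UMIs, the mean of the libraries was 300.0 CPM for Meg3, 85.7 for Rian, 10.8 for Mirg, 22.0 for H19, 56.5 for Igf2, 49.2 for Peg3, 154 for Ndn, 142 for Snrpn, 86.5 for Cdkn1c and 4.99 for Dlk1. In the 1970 and 1031 barcodes over the mitochondrial limit, it was 544 CPM for Meg3, 122 for Rian, 12.2 for Mirg, 18.9 for H19, 57.5 for Igf2, 61.9 for Peg3, 90.2 for Ndn, 112 for Snrpn, 77.7 for Cdkn1c and 5.97 for Dlk1. For comparison, Meg3 was at 471 CPM, Igf2 at 75.0 and Dlk1 at 13.1 over all cells kept. In the mitochondrial group, Igf2 was at 35.3 and 79.7 CPM and Cdkn1c at 49.8 and 106 in WT replicates 1 and 6.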

How the results depend on the processing

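Of 774 differences of the 10 genes refitted with 1 choice changed, 742 kept direction and side of the threshold, 19 lost the call, 12 gained it and 1 reversed: Cdkn1c in mural against endothelial cells without cells of both the fibroblast and a vascular gate, at -0.75 (adjusted p = 0.021), a setting added after seeing the data. Of 308 refits of these genes without 1 class sum, 256 kept direction and side, 45 lost the call and 7 gained it. The library as a replicate block lost no call and gained 3: Mirg in fibroblasts against neurons (adjusted p = 0.041), Rian in IPCs against RGCs (0.033) and Snrpn in mural against endothelial cells (0.028). With DESeq2, genes called were 2076 for fibroblast against vascular cells (3477 in the main fit), 4473 for GABAergic against excitatory neurons (6960), 1456 for IPCs against RGCs (2915) and 1565 for mural against endothelial cells (2713), with all classes in a single fit 4520 for GABAergic against excitatory neurons, and without the count filter 1721 for mural against endothelial cells. Of the 10 genes, IPCs against RGCs kept 3 calls with DESeq2 and 2 without the count filter, where 6.86% and 9.17% of all genes passed. The DESeq2 share counts genes without an adjusted p as not passing. With the stricter cell filter and with mixed cells given to the leading class, 3 calls were kept in each, where 20.5% and 24.7% of all genes passed. Leaving out 1 sum gave 3628 to 8130 genes for fibroblasts against neurons (9076 in the main fit), 3120 to 6893 for microglia against neurons (7997), 0 to 3441 genes and 0 to 9 of the 10 for fibroblasts against vascular cells, and 0 to 2606 genes and 0 to 7 of the 10 for mural against endothelial cells; the lone sum was assumed to vary like the other class. Where edgeR called 0 genes, 2950 and 2963 genes (vascular) and 2623 and 2562 (mural) had an unadjusted p under 0.05. The endothelial Meg3 mean of 21.1 CPM was 13.9 without scored doublets, 51.6 with the stricter gate and 67.9 with mixed cells, and at 33 UMIs depth limits it; other levels that moved past 1.5 times were H19 in IPCs (10.4 to 6.72), Igf2 in GABAergic neurons (4.24 to 2.76) and Snrpn in mural cells (27.8 to 45.4). With 1 library only, no test was possible. These differences, on total counts, lay more than 1 SD of the 2 libraries from the main fit in 54 of 160 cases. That count includes the shift from TMM scaling and does not measure disagreement between the libraries. H19 in neurons against progenitors was counted at -3.67 in both libraries, against -3.54 in the main fit.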

Other observations

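Cells that passed no gate, 1173 and 954, held 1101 and 1008 CPM of Meg3 (1055 ± 65.9), near the GABAergic level of 1063 ± 15.4, with Rian at 201 and 167 CPM, Snrpn at 156 and 170, Ndn at 128 and 153, Dlk1 at 4.77 and 5.42 and Igf2 at 15.2 and 8.13. Cells of more than 1 gate held 435 and 433 CPM of Meg3. GABAergic neurons with a UMI of Dlx2 held less Meg3, 805 and 744 CPM, than those without, 1210 and 1278 CPM, and less Rian, 136 and 110 against 202 and 191 CPM, while Snrpn was at 256 and 256 against 260 and 277. The split by Dlx2 was chosen after the values were seen, and no test was run on it.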
